A study of Mus musculus with 17 samples.

Results

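The results concern the chamber difference in the change of transcript levels over the first 3 days after birth: the change from postnatal day 0 (P0) to day 3 (P3) in the right ventricle (RV), minus the same change in the left ventricle (LV). The libraries were chosen by their titles: 12 of the 17 in the series, 3 for each chamber at each of the 2 ages. All came from male C57BL/6 pups with no treatment or engineered allele. The groups were LV at P0, LV at P3, RV at P0 and RV at P3. P0 precedes closure of the ductus arteriosus per the labels, and P3 is labelled a transition stage. The labels call the libraries of a group biological replicates and do not say whether an LV and an RV library of one number came from the same pup or from pooled pups. Whole ventricle was sequenced, so every level is a mixture of cardiomyocytes and all other cells of the wall.

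Before birth the RV carries much of the systemic output, because blood crosses the ductus arteriosus from the pulmonary artery to the aorta. When the lungs expand and the duct closes, RV pressure load declines and LV load increases. Ventricular muscle reads such load through stretch-sensitive proteins of the sarcomere and nucleus, and the natriuretic peptide and ankyrin-repeat genes are established readouts of it. In the same days cardiomyocytes leave the cell cycle, oxidative metabolism is built up, and the epicardium, the mesothelial sheet that covers the ventricles, grows together with fibroblasts and tissue macrophages.

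The deposited values were RPKM (reads scaled to transcript length and library size) for 20624 transcript entries, of which 10668 passed a filter of 1 RPKM in at least 2 libraries. The 12 libraries held 27561845 to 41061058 reads, as recovered from the values. The share of reads that fell in the listed entries was 71.3% ± 1.71 (SD, n = 3) in LV at P0, 62.8% ± 4.16 (SD, n = 3) in LV at P3, 70.1% ± 2.39 (SD, n = 3) in RV at P0 and 61.1% ± 1.13 (SD, n = 3) in RV at P3, so it differed by age in both chambers. Myl2, the ventricular light chain that defines the tissue, was 14218 to 18468 RPKM in the 12 libraries. Of the atrial markers, Sln was at most 0.12 RPKM, and the summed level of the atrial list was 1121 to 1391 RPKM in LV and 983.9 to 1360 in RV at P0, and 390 to 527 in LV and 331 to 381 in RV at P3. Of the 10 lung markers listed, 6 are in the table; these 6 together reached at most 1.02 RPKM in any library, and none passed the filter.

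A chamber difference is given here on the log2(RPKM + 1) scale, which understates changes of low genes. A negative value means that the change from P0 to P3 was lower in the RV than in the LV (a larger loss or a smaller gain), whatever the order of the levels. Without regard to the numbers of the libraries, limma called none of the 10668 entries at an adjusted p under 0.05 (0%), while 535 (5.01%) had an unadjusted p under 0.05. The same model on recovered reads (limma-voom) also called none. The numbers of the libraries, however, linked the chambers. The deviation of an LV library from its group mean correlated with that of the RV library of the same number and age at 0.269 to 0.587 in the 6 pairs of P0 and P3, and each of these libraries correlated best with its own number. Wdfy1, an entry chosen after its values were seen, shows the link: in LV at P0 it was 4.07, 1.71 and 9.30 RPKM for numbers 1, 2 and 3, and in RV 3.41, 1.52 and 7.99.

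With the number as a block within age, limma called 101 entries (0.947% of those tested), 64 higher (0.600%) and 37 lower (0.347%), each from a different gene. These 101 carry the description that follows, and they were singled out by this second fit after its values were seen. With an estimated correlation between same-numbered libraries (0.406) in place of the block, 26 entries were called (0.244%), 12 higher and 14 lower, and 24 of them were among the 101. The split depended on the scaling: it was 67 higher to 69 lower with upper-quartile scaling and 64 to 76 with median-of-ratios scaling. The count was 88, 65 and 34 without P0 pair 1, 2 or 3, and 52, 37 and 45 without P3 pair 1, 2 or 3. Of the 101, 19 were called in all 6 of these fits, 7 lower and 12 higher. The genes described at length below are from those 19 unless the text says otherwise.

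**Figure D1:**
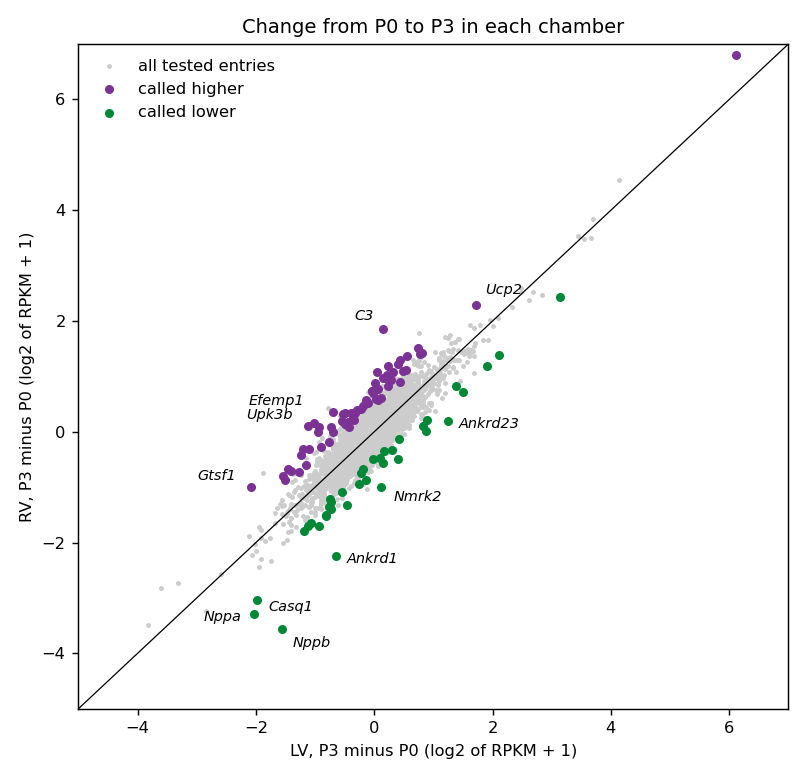
Change from P0 to P3 on the log2(RPKM + 1) scale in LV (horizontal) and RV (vertical), 1 point for each of the 10668 tested entries, with the diagonal marking an equal change. The 64 entries called higher with the block lie above the diagonal and the 37 called lower lie below it, with Nppb and Ankrd1 farthest below and C3 farthest above.

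The calls described here fall into 3 groups with further single genes: load-response genes of muscle on the lower side, and mesothelial genes and matrix or macrophage genes on the higher side. On the lower side, Nppb had a chamber difference of -2.0 and Ankrd1 of -1.59. On the higher side, C3 had 1.70 and Upk3b had 1.23. In bulk tissue, fewer cells of a type and less RNA per cell cannot be told apart, and this holds for each group.

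Nppb encodes B-type natriuretic peptide, a hormone released by stretched ventricular muscle (GRCm38 chr4:147985786-147987205). In LV it was 176, 292 and 355 RPKM at P0 and 92.9, 64.7 and 117 at P3. RV held 265, 336 and 441 at P0 and 39.2, 23.3 and 23.9 at P3. The RV thus exceeded the LV in all 3 pairs at P0 and was below it in all 3 pairs at P3, and within each age the RV libraries overlapped the LV libraries at P0 only. The mean ratio of RV to LV was 1.27 at P0 and 0.31 at P3. The chamber difference was -2.0 ± 0.19 (SE), with an adjusted p of 2.5e-05 in limma with the block, 0.0029 with the estimated correlation and 0.18 with neither. Leaving out each pair in turn kept the adjusted p at or below 0.00033.

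Ankrd1 encodes a cardiac ankyrin repeat protein that sits at titin and moves to the nucleus under strain (chr19:36111965-36119844). Its LV levels were 563, 855 and 919 RPKM at P0 and 594, 326 and 586 at P3. Its RV levels were 805, 1215 and 1572 at P0 and 310, 159 and 294 at P3. Every RV library at P3 was below every LV library at that age, and below every RV library at P0. The RV minus LV gap by pair was 0.52, 0.51 and 0.77 at P0 and -0.93, -1.03 and -0.99 at P3. This tight agreement between pairs gave the smallest adjusted p in limma with the block, 9.86e-07, for a difference of -1.59 ± 0.12 (SE), against 0.50 without the block.

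Ankrd23 encodes another ankyrin repeat protein of the same titin-binding family (chr1:36530193-36536556), and its pattern differed in form. An annotated gene on the same strand, Gm42417, shares exon sequence with it, so reads of the pair cannot be told apart. It was 7.39, 12.4 and 9.51 RPKM in LV at P0 and 27.4, 18.4 and 27.8 at P3, a 2.51-fold higher mean. In RV it was 8.02, 14.8 and 11.3 at P0 and 15.1, 10.3 and 13.8 at P3, so the RV libraries of both ages overlapped. The chamber difference of -1.05 ± 0.11 (SE) therefore came with a higher LV level rather than a lower RV level. Limma with the block gave an adjusted p of 9.54e-05, and Ankrd1 and Ankrd23 were called in all 15 alternatives of the blocked fit.

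The sequences before the start sites of these 3 load-response genes are shown because these were the calls of the load list that held without each pair. In the 250 bases upstream of the RefSeq start site (GRCm38.p6), both strands were searched for the MCAT core CATTCC, to which TEAD factors bind, and for the GATA element AGATAA. Of 32851 promoter windows of this length, 12.6% hold the first and 9.99% the second. Stretches of 30 bases around each match follow on the strand of the gene, 5′ to 3′, with the match in capitals, which reads GGAATG or TTATCT where it lies on the opposite strand. Some annotated transcript models start farther upstream than the start sites used here. For Nppb the start site used was 147985900, while the gene span given above begins at 147985786. The Nppb matches therefore lie inside that span.
Nppb MCAT, chr4:147985783-147985812, plus strand: gctcagccggcaGGAATGcagctgataaat
Nppb GATA, chr4:147985804-147985833, plus strand: ctgataaatcagAGATAAccccacccctac
Ankrd1 upstream MCAT, chr19:36120037-36120066, minus strand: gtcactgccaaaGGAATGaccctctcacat
Ankrd1 downstream MCAT, chr19:36119950-36119979, minus strand: gacactaagtctGGAATGaaaattcacctg
Ankrd1 GATA, chr19:36119874-36119903, minus strand: caggctggaagaTTATCTcacccagcccta
Ankrd23 GATA, chr1:36536755-36536784, minus strand: cttactctgactTTATCTgccttcttcctt
The MCAT match of Nppb begins 105 bases before its start site and those of Ankrd1 begin 210 and 123 bases before. All 3 windows hold 1 GATA match, and the window of Ankrd23 holds no MCAT match. The matches are letters in a sequence, and no binding was measured here.

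**Figure D2:**
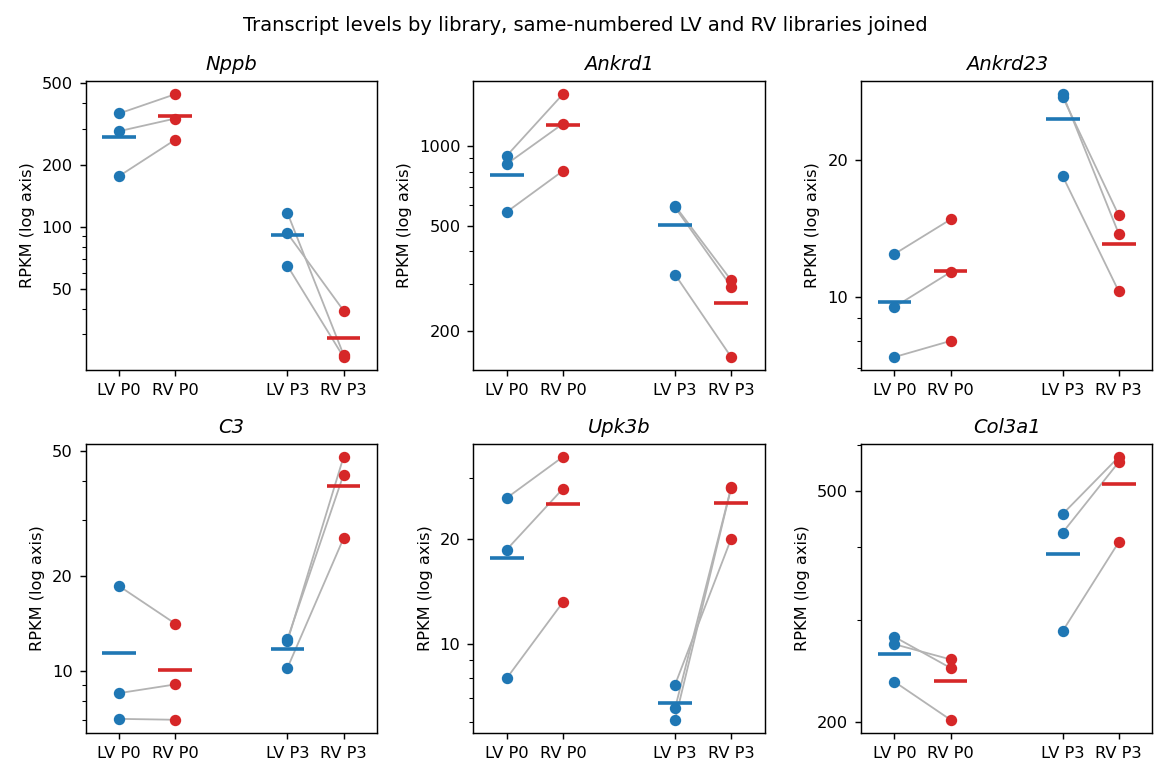
RPKM (log axis) of 6 genes in the 12 libraries, LV in blue and RV in red, horizontal bars at the means of 3 libraries, and grey lines joining the LV and RV library of one number. For Nppb, Ankrd1 and Ankrd23 the joining lines rise from LV to RV at P0 and drop at P3, while for C3, Upk3b and Col3a1 they rise at P3.

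Nppa, like the 3 genes above, is on the load list and was called lower. Nmrk2, Tnfrsf12a, Casq1 and Zdhhc2, described after it, are not on that list. They are given because they were called lower. Nppa, the atrial natriuretic peptide gene that the fetal ventricle also transcribes, was 943, 738 and 692 RPKM in LV at P0 and 149, 282 and 169 at P3. The RV libraries held 660, 497 and 581 at P0 and 74.8, 43.8 and 60.1 at P3. Unlike Nppb it was lower in RV than in LV in every pair of both ages, and the gap widened, with a difference of -1.26 ± 0.28 (SE). Its adjusted p with the block was 0.0431 and lay between 0.0042 and 0.17 on leaving out a pair, with the call lost without P0 pair 1, P0 pair 3 or P3 pair 2. The call was also lost with the estimated correlation (adjusted p = 0.0951) and with upper-quartile or median-of-ratios scaling. Nppa was called in 5 of the 15 alternatives of the blocked fit.

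Nmrk2 encodes a nicotinamide riboside kinase of muscle, in the pathway of NAD synthesis. It was 5.06, 10.7 and 10.2 RPKM in LV at P0 and 10.5, 5.26 and 13.1 at P3, and in RV 6.84, 17.9 and 21.5 at P0 and 6.83, 4.40 and 9.09 at P3. The groups overlapped widely, and the difference of -1.11 ± 0.15 (SE, adjusted p = 0.00165 in limma with the block, 0.133 with the estimated correlation and 0.95 with neither) rested on the pairs. The RV was above the LV in all 3 pairs at P0, by 0.37 to 1.0, and below it in all 3 at P3, by 0.21 to 0.55.

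Tnfrsf12a, the receptor for the cytokine TWEAK, was 22.8, 24.1 and 36.3 RPKM in LV at P0, 22.7, 14.4 and 22.3 in LV at P3, 32.9, 32.2 and 39.2 in RV at P0 and 18.3, 9.44 and 13.1 in RV at P3. The order of the chambers again turned over between the ages, with a difference of -0.87 ± 0.13 (SE, adjusted p = 0.00495 in limma with the block and 0.0675 with the estimated correlation). Casq1, the calsequestrin isoform of fast skeletal muscle that stores calcium in the sarcoplasmic reticulum, averaged 54.3 RPKM in LV and 73.8 in RV at P0. At P3 it averaged 13 in LV and 8.16 in RV, where the libraries of the 2 chambers did not overlap, and the difference was -1.06 ± 0.15 (SE, adjusted p = 0.00269 with the block). The skeletal muscle list, which does not hold Casq1, had 6 tested members and no call. All 6 were below 0, as were 41.7% of all entries, with a median of -0.42. The part of any skeletal muscle tissue in these values was not tested. Zdhhc2, a palmitoyltransferase, was the seventh gene on the lower side called without each pair, at -0.70 ± 0.12 (SE, adjusted p = 0.0122 with the block).

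The list of cardiac load and stress genes had 18 tested members. With the block, 4 were called lower (Nppb, Ankrd1, Nppa and Ankrd23) and none higher, against 0.347% and 0.600% of all entries. With the estimated correlation 3 of the 4 were left, without Nppa (adjusted p = 0.0951). The blocked fit also called 3, without Nppa, with upper-quartile or median-of-ratios scaling. The list's median chamber difference was -0.21, with 14 of the 18 below 0, against 0.03 over all entries. That shift was not particular to the load list. The median was -0.17 for 22 genes of adult contraction and calcium handling, 16 of them below 0. For 12 fetal-type sarcomere genes it was -0.17, with 7 below 0. The summed level of ventricular cardiomyocyte markers averaged 38167 RPKM in LV and 40777 in RV at P0, and 33188 and 30677 at P3. The RV minus LV gaps of the 3 P3 pairs were all below those of the 3 P0 pairs for 9 of the 18 and all above for none, where 6.79% and 12.7% of all entries did so. The other members lay between -0.76 (Fhl1, a LIM protein of the sarcomere, adjusted p = 0.086) and 0.17 (Actn1), with Acta1, the skeletal actin of the fetal heart, at -0.63 (adjusted p = 0.11). Fhl1 and Acta1 were low entries, with highest group means of 4.52 and 2.13 RPKM. Without P0 pair 1, P0 pair 3 or P3 pair 2 the list held 3 calls, and without P3 pair 1 it held 5. Nppa also stands in the atrial and conduction lists and Ankrd1 in the YAP list, so these calls are not additional.

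Among contractile genes, Myom2, the M-band protein myomesin 2, averaged 45.1 RPKM in LV and 77.5 in RV at P0 and 165 and 164 at P3. Its difference of -0.72 ± 0.14 (SE, adjusted p = 0.0228 in limma with the block) was the 1 call among 22 genes of adult contraction and calcium handling. That call was lost without P0 pair 2 or 3, or without P3 pair 1 or 3, and with the estimated correlation (adjusted p = 0.245). Myl9, a smooth muscle light chain, was the 1 call of 12 fetal-type sarcomere genes, at -0.58 ± 0.12 (SE, adjusted p = 0.032 with the block), lost without P0 pair 3 or without any of the 3 P3 pairs, and with the estimated correlation (adjusted p = 0.121). The isoform switches of the sarcomere gave no call. Myh7, the slow myosin of the fetal ventricle, had a difference of 0.35 ± 0.17 (SE, adjusted p = 0.44), Myh6, its adult counterpart, 0.01 ± 0.17 (0.99), Tnni1, the fetal troponin I, -0.25 ± 0.16 (0.58), Tnni3, the adult troponin I, -0.04 ± 0.14 (0.95), and Tcap, the titin cap, 0.02 ± 0.15 (0.98), all in limma with the block. The signs for Myh6 and Tcap flipped under both other scalings. The Myh6 entry given here had a highest group mean of 85.0 RPKM, against 3095 for Myh7 and 2973 for Tnni3. Myl4 and Myl7, light chains of the atrium, were at -0.40 ± 0.16 (0.30) and -0.48 ± 0.30 (0.57).

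Ccn2, the connective tissue growth factor gene and a YAP and TGF-beta target, had a difference of -0.69 ± 0.14 (SE, adjusted p = 0.0235 in limma with the block). It averaged 42.1 RPKM in LV and 53.2 in RV at P0 and 35.7 and 26.8 at P3, and the call was lost without P0 pair 3 or P3 pair 3, and with the estimated correlation (adjusted p = 0.116). The other 22 entries of that list included Ankrd1 as a call, and the list's median was 0.13. The remaining calls on the lower side included muscle genes such as Trim72, a membrane-repair protein (-0.72), Trim54, a muscle ubiquitin ligase (-0.72), and Cavin4, a muscle caveolar protein (-0.56). All 3 calls were lost without P0 pair 2, P0 pair 3 or P3 pair 3, among others, and with the estimated correlation (adjusted p = 0.158, 0.0539 and 0.194).

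On the higher side, the epicardial and mesothelial list had the highest median of the gene lists with at least 5 tested members, although 5 of its 6 calls were lost with the estimated correlation. Upk3b encodes uroplakin 3b, a membrane protein of mesothelium (chr5:136038496-136044993). It was 26.3, 7.99 and 18.7 RPKM in LV at P0 and 6.07, 7.65 and 6.56 at P3. Its RV levels were 34.4, 13.2 and 27.9 at P0 and 28.1, 20.1 and 28.1 at P3. All RV libraries at P3 were above all LV libraries at P3, with a mean ratio of 3.76, against 1.43 at P0. The P0 levels varied widely between pairs in both chambers alike, with pair 2 lowest in each. The difference was 1.23 ± 0.17 (SE), with an adjusted p of 0.00205 in limma with the block, 0.0805 with the estimated correlation and 0.81 with neither.

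Efemp1, which encodes the matrix protein fibulin 3 and is not on the mesothelial list, was 10.8, 3.95 and 9.58 RPKM in LV at P0 and 3.52, 2.98 and 3.11 at P3. RV levels were 13.6, 5.76 and 11.5 at P0 and 10.3, 9.91 and 12.8 at P3. Its RV mean was thus close to level while its LV mean was 2.53-fold lower at P3, and the difference was 1.18 ± 0.13 (SE, adjusted p = 0.000184 with the block and 0.0464 with the estimated correlation). Msln, the surface protein mesothelin, was 13.7, 5.59 and 13.3 RPKM in LV at P0 and 4.38, 5.63 and 4.58 at P3, and in RV 20.6, 9.47 and 20 at P0 and 17, 14.3 and 19.5 at P3. It had a difference of 1.01 ± 0.15 (SE, adjusted p = 0.00333 with the block and 0.0857 with the estimated correlation).

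Lrrn4, a leucine-rich repeat protein of mesothelium, and Myrf, a membrane-bound transcription factor, showed the same form. Lrrn4 averaged 5.05 RPKM in LV at P0 and 1.84 at P3, and 6.34 and 5.89 in RV, a difference of 0.95 ± 0.15 (SE, adjusted p = 0.00593 in limma with the block and 0.164 with the estimated correlation). Myrf averaged 4.41 and 1.06 in LV and 4.53 and 3.05 in RV, a difference of 0.89 ± 0.14 (SE, adjusted p = 0.00593 with the block and 0.244 with the estimated correlation). For all 5 of these genes the LV libraries at P3 lay below the RV libraries at P3 with no overlap.

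C3, the central complement component, stood apart from the other members of the epicardial list (chr17:57203967-57228136). In LV it was 18.6, 7.04 and 8.49 RPKM at P0 and 12.6, 10.2 and 12.4 at P3, overlapping. In RV it was 14.1, 6.99 and 9.05 at P0 and 41.9, 26.3 and 47.7 at P3, so each RV library at P3 exceeded every other library of the 12. The RV mean was 3.85-fold higher at P3 and the LV mean 1.03-fold. The difference of 1.70 ± 0.18 (SE) had an adjusted p of 7.02e-05 in limma with the block, 0.00955 with the estimated correlation and 0.50 with neither, and at most 0.0003 on leaving out a pair.

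**Figure D3:**
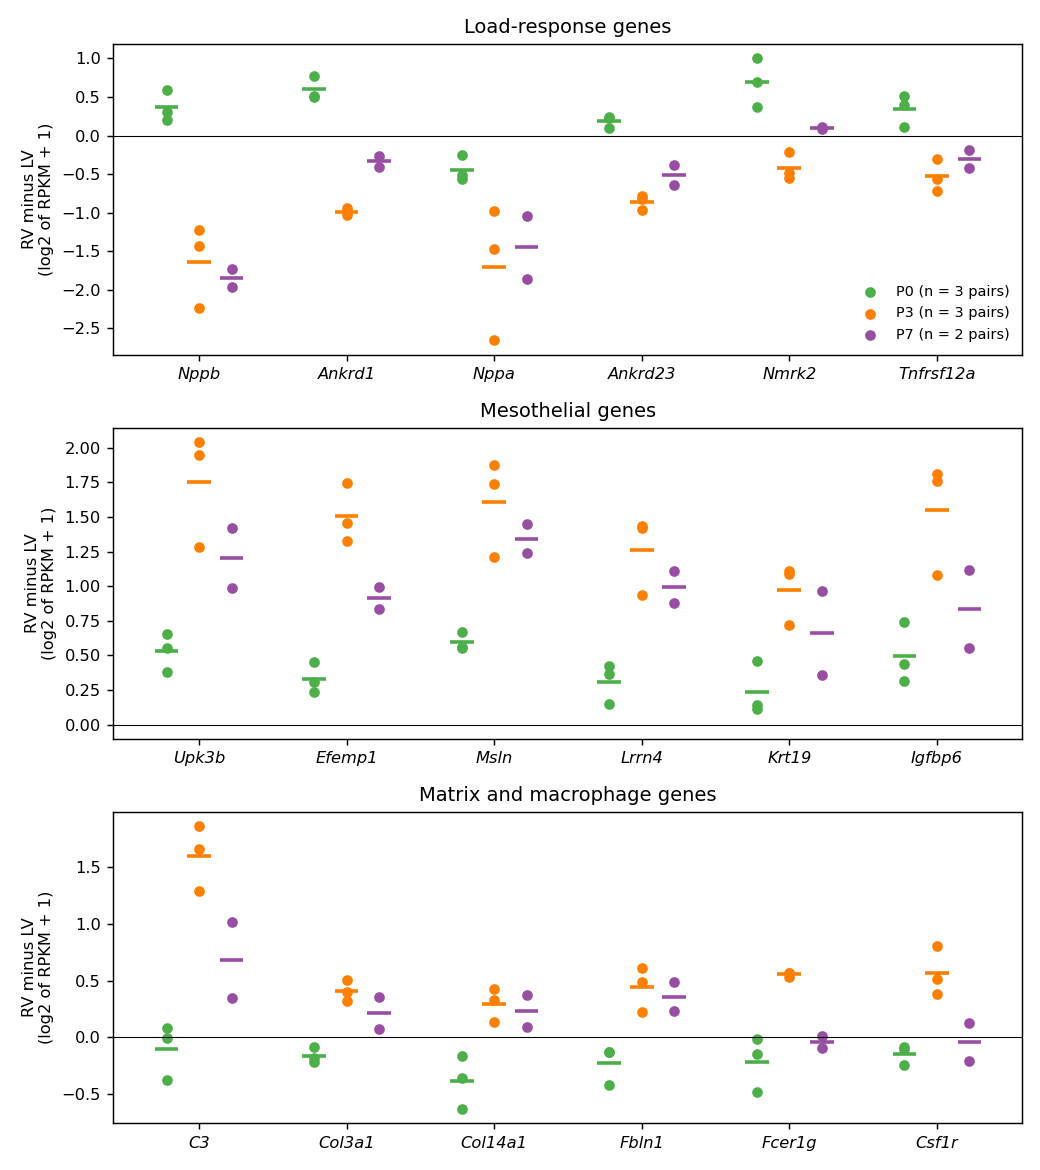
RV minus LV on the log2(RPKM + 1) scale for 18 genes, 1 point for each same-numbered pair at P0, P3 and P7 and bars at the means (3, 3 and 2 pairs). The load-response genes drawn, other than Nppa, lie above 0 at P0 and below it at P3. The mesothelial genes drawn lie above 0 at all ages and highest at P3. The matrix and macrophage genes drawn pass from below or near 0 to above it. Nmrk2 and Tnfrsf12a, drawn with the load-response genes, are not on the load list. Efemp1, drawn with the mesothelial genes, is not on the mesothelial list, while C3, drawn in the last panel, is. All 18 genes were called with the block. Members of the mesothelial list without a call, such as Wt1, Krt8 and Krt18, are not drawn.

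Of the 14 tested members of the epicardial and mesothelial list, 6 were called higher with the block (C3, Upk3b, Igfbp6, Msln, Lrrn4 and Krt19) and none lower, against 0.600% and 0.347% of all entries. With the estimated correlation C3 alone was called, and the adjusted p was 0.0752 for Igfbp6, 0.0805 for Upk3b, 0.0857 for Msln, 0.164 for Lrrn4 and 0.212 for Krt19. The list's median chamber difference was 0.71. The P3 pairs were all above the P0 pairs for 10 members and all below for 1, against 12.7% and 6.79%. Igfbp6, an IGF-binding protein, had 1.05 ± 0.19 (SE, adjusted p = 0.0131 with the block), lost without P0 pair 3. Krt19, an epithelial keratin, had 0.73 ± 0.16 (SE, adjusted p = 0.0431), lost on leaving out any of the 6 pairs. The transcription factor Wt1, which marks epicardial cells, was at 0.25 (adjusted p = 0.58), and the keratins Krt8 and Krt18 of the same list were at -0.16 (0.75) and -0.30 (0.44). The count of 6 became 4 without P0 pair 3 and 5 or 6 without any other pair.

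The summed level of the epicardial list was 65.4 to 136 RPKM in LV at P0 and 74.3 to 154 in RV at P0. At P3 it was 70.5 to 71.7 in LV and 119 to 178 in RV, without overlap. How much of the ventricular surface each dissection carried was not measured, and its part in these differences was not tested. Further calls outside the list were Krt7, another epithelial keratin (0.78), Rspo1, a secreted enhancer of Wnt signalling (0.84), and Gpc3, a heparan sulfate proteoglycan of the surface of growing cells (0.64). Gpc3 was 136, 76.4 and 121 RPKM in LV at P0 and 43.7, 30.0 and 40.4 at P3, and in RV 142, 70.4 and 110 at P0 and 65.7, 45.2 and 59.8 at P3. The Krt7 call was lost without P0 pair 3 or P3 pair 1, and the Rspo1 call remained only without P3 pair 2; with the estimated correlation the adjusted p was 0.196 and 0.115. The Gpc3 pairs were nearly level at P0 while RV stood above LV by 0.56 to 0.58 in all 3 pairs at P3, for a Gpc3 difference of 0.64 ± 0.10 (SE, adjusted p = 0.00593 in limma with the block and 0.183 with the estimated correlation).

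The called genes of the fibroblast and matrix lists all lay on the higher side, with smaller differences, and none was called with the estimated correlation. Ccn2, the connective tissue growth factor gene, is on neither list and was called lower. Col3a1, the type III collagen of loose connective tissue, was 281, 235 and 273 RPKM in LV at P0 and 457, 287 and 424 at P3, and in RV 248, 202 and 257 at P0 and 572, 409 and 561 at P3. RV was below LV in every P0 pair, by 0.09 to 0.22, and above it in every P3 pair, by 0.33 to 0.51. The difference was 0.57 ± 0.11 (SE, adjusted p = 0.0228 in limma with the block), lost without P0 pair 2 or 3 or P3 pair 2 or 3. Col14a1, a fibril-associated collagen, had 0.68 ± 0.13 (SE, adjusted p = 0.0201), lost without P0 pair 1 or 3 or P3 pair 1 or 2.

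Of 35 tested matrix genes, 6 were called higher (Col14a1, Fbln1, Tnc, Col3a1, Lox and Col1a2) and none lower, against 0.600% and 0.347% of all entries, with a list median of 0.40. With the estimated correlation none of the 6 was called (adjusted p = 0.0766 for Col14a1, 0.10 for Fbln1 and Col3a1, 0.104 for Lox, 0.185 for Col1a2 and 0.19 for Tnc). The P3 pairs lay above all P0 pairs for 19 of the 35 and below for none, where 12.7% and 6.79% of all entries did so. Fbln1, a fibulin of basement membranes, had 0.67, Tnc, the adhesion-modulating glycoprotein tenascin C, 0.57, Lox, the collagen cross-linking oxidase, 0.57, and Col1a2, a chain of type I collagen, 0.50. The count of 6 was 4 without P0 pair 1, 2 without P0 pair 2 or P3 pair 3, and 1 without P0 pair 3, P3 pair 1 or P3 pair 2. Of 15 fibroblast markers, 2 were called higher, both collagens already named (0.600% of all entries), and the median was 0.44; both calls were lost with the estimated correlation (adjusted p = 0.10 for Col3a1 and 0.185 for Col1a2). The fibroblast count was 0 without P0 pair 2 or P3 pair 2 and 1 without P0 pair 3, P3 pair 1 or P3 pair 3. Postn, the matricellular protein periostin, was at 0.61 ± 0.16 (SE, adjusted p = 0.083), and Tcf21, a transcription factor that marks cardiac fibroblasts, at 0.44 (adjusted p = 0.16).

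Markers of the great vessels and outflow tract did not all move with the matrix genes. Their summed level was 95.6 to 106 RPKM in LV and 100 to 123 in RV at P0, and 133 to 159 in LV and 213 to 289 in RV at P3, without overlap at P3. Of the 12 listed, 8 passed the filter, with a median chamber difference of 0.28 and Actg2 as the 1 call. Mfap4, also on the matrix list, was at 0.65 and Cytl1 at 0.48. Mfap5, on both lists too, was at 0.06, Wnt11 at 0.07, Rspo3 at -0.10 and Sema3c at -0.18. Eln and Mfap4 had the highest group means of the 8, at 88.6 and 89.6 RPKM. Eln, the elastin gene of arterial wall, which is on this list and the matrix list, averaged 19.8 and 34.0 RPKM in LV and 24.9 and 88.6 in RV, a difference of 1.03 ± 0.25 (SE, adjusted p = 0.058 in limma with the block). Myh11, the smooth muscle myosin, was at most 0.226 RPKM in the 12 libraries and Isl1, an outflow-tract progenitor factor, at most 0.142. Hoxa3 reached 0.528 RPKM and Prdm6 1.07. Among the 11 tested smooth muscle and pericyte markers, the highest group mean of a gene ran from 1.19 (Smtn) to 681 RPKM (Acta2). How much of the vessel roots each dissection carried was not measured, and the part of these markers in the matrix results was not tested.

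Macrophage genes followed. Fcer1g, the signalling chain of Fc receptors on myeloid cells, was 12, 11.3 and 11.6 RPKM in LV at P0 and 14.2, 16.9 and 13.3 at P3. In RV it was 10.7, 11.2 and 8.03 at P0 and 21.6, 24.9 and 20.2 at P3, so the RV libraries at P3 stood above all others. The difference was 0.77 ± 0.12 (SE), with an adjusted p of 0.00593 in limma with the block and 0.00955 with the estimated correlation. Cd300c2, an activating receptor of myeloid cells, was a low gene, at 1.09, 1.04 and 1.0 RPKM in LV at P0, 1.12, 0.972 and 1.25 in LV at P3, 0.197, 0.395 and 0.436 in RV at P0 and 2.21, 1.56 and 1.71 in RV at P3. Both RV groups lay outside the range of the LV, on opposite sides of it, with a difference of 1.02 ± 0.15 (SE, adjusted p = 0.00314 with the block and 0.00516 with the estimated correlation).

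All 10 tested macrophage markers had a positive chamber difference, with a median of 0.57, and 58.3% of all entries were above 0. Csf1r, the growth factor receptor that macrophages depend on (0.71 ± 0.14 SE, adjusted p = 0.0207 in limma with the block), and Lyve1, a hyaluronan receptor of resident macrophages and lymphatic endothelium (0.79 ± 0.15 SE, 0.0201), were called, against 0.600% of all entries. Both calls were lost with the estimated correlation (adjusted p = 0.105 for Csf1r and 0.0765 for Lyve1). C1qb, a complement component made by macrophages, was at 0.65 (adjusted p = 0.059). The P3 pairs lay above all P0 pairs for 9 of the 10, against 12.7% of all entries. Of the 2 calls, 1 was left without P0 pair 3, P3 pair 2 or P3 pair 3. The summed level of the list was 72.1 to 81.9 RPKM in LV and 63.5 to 74.9 in RV at P0, and 75.2 to 92.8 in LV and 100 to 129 in RV at P3. Mpeg1 (0.96), Ctss (0.87) and Fcgr1 (0.63), a pore-forming protein, a lysosomal protease and an Fc receptor of myeloid cells, were also called higher, and all 3 calls were lost without P0 pair 3 or without any of the P3 pairs. With the estimated correlation Mpeg1 and Fcgr1 were called and Ctss was not (adjusted p = 0.0676). None of the 6 lymphoid and granulocyte markers was called, and their median was -0.02.

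Growth and patterning genes supplied the rest of the calls that held without each pair. Slit3, a secreted guidance ligand, averaged 5.04 RPKM in LV at P0 and 2.63 at P3, and 4.39 and 4.61 in RV, a difference of 0.81 ± 0.13 (SE, adjusted p = 0.00593 in limma with the block and 0.0606 with the estimated correlation). Plagl1, an imprinted zinc finger factor of fetal growth, was 154, 97.8 and 138 RPKM in LV at P0 and 71.8, 59.0 and 73.7 at P3, and in RV 133, 89.0 and 120 at P0 and 92.1, 90.3 and 96.5 at P3. Its RV libraries were the lower ones of each pair at P0 and the higher ones at P3, with a difference of 0.63 ± 0.10 (SE, adjusted p = 0.00766 with the block and 0.0675 with the estimated correlation). Capn6, a non-proteolytic calpain of developing tissue, averaged 41.1 and 14.3 RPKM in LV and 39.7 and 22.8 in RV, a difference of 0.68 ± 0.11 (SE, adjusted p = 0.00766 with the block and 0.17 with the estimated correlation).

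The chamber patterning list had 1 call in 21, Hey2, a Notch-responsive repressor of the compact ventricular wall. Hey2 averaged 81.3 RPKM in LV and 70.5 in RV at P0 and 33.1 and 42.4 at P3, a difference of 0.55 ± 0.11 (SE, adjusted p = 0.0311 in limma with the block), and the call was lost on leaving out any of the 6 pairs and with the estimated correlation (adjusted p = 0.0539). Tbx5, the T-box factor of the left ventricle, was at 0.43 ± 0.12 (0.10), Hand2, which the RV needs for its growth, at 0.38 ± 0.12 (0.19), and Irx4, a ventricular factor, at 0.33 ± 0.12 (0.22). Hand1, which is enriched in the LV, averaged 5.33 and 1.34 RPKM in LV and 1.05 and 0.219 in RV. Its difference of 0.63 ± 0.20 (0.19) turned to -0.13 with a pseudocount of 0.1 and to -0.60 in limma-voom, so no direction is given. Bmp10, a trabecular growth factor, averaged 19.3 and 0.606 RPKM in LV and 21.0 and 2.07 in RV, with a difference of 0.78 ± 0.20 (0.077).

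Mitosis and respiratory chain genes gave no call, although their members leaned one way under each of the 3 scalings. All 22 tested mitosis genes were below 0, as were 41.7% of all entries, with a median of -0.28. The P3 pairs were all below the P0 pairs for 12 of them, against 6.79% of all entries. Ccnb1, the cyclin of mitotic entry, averaged 66.1 and 35.8 RPKM in LV and 62.2 and 23.3 in RV, a difference of -0.50 ± 0.12 (SE, adjusted p = 0.062 in limma with the block). Mki67, a marker of all cycling phases, was at -0.13 ± 0.11 (0.71). Outside the list, Ube2c, the ubiquitin-conjugating enzyme of mitotic exit, was called at -0.59 ± 0.10 (SE, adjusted p = 0.011), lost without P0 pair 3 or P3 pair 2 and with the estimated correlation (adjusted p = 0.0676). Cks2 (-0.67) and Cdca8 (-0.54), both of the mitotic machinery, were also called and lost without P0 pair 1, P0 pair 3, P3 pair 1 or P3 pair 2, with Cdca8 lost without the other 2 as well. With the estimated correlation neither was called (adjusted p = 0.0768 and 0.163). The 21 DNA replication genes had a median of -0.08 and no call.

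All 30 tested nuclear genes of oxidative phosphorylation were likewise below 0, with a median of -0.26 and 19 in which the P3 pairs lay below all P0 pairs, against 41.7% and 6.79% of all entries. The nearest to a call was Uqcrfs1, the Rieske subunit of complex III, at -0.42 ± 0.11 (SE, adjusted p = 0.099 in limma with the block). Uqcrq, a complex III subunit outside the list, averaged 343 and 455 RPKM in LV and 436 and 396 in RV and was called at -0.55 ± 0.12 (SE, adjusted p = 0.0431), a call that remained only when P0 pair 2 was the one left out. With upper-quartile and median-of-ratios scaling, 3 and 4 oxidative phosphorylation genes and 4 and 4 mitosis genes were called lower. The 24 cytosolic ribosomal protein genes had a median of 0.00, with 12 above and 12 below 0. Among fuel genes, Ucp2, a mitochondrial carrier, averaged 15.1 and 52.4 RPKM in LV and 14.5 and 75.5 in RV. It was called at 0.57 ± 0.10 (SE, adjusted p = 0.0149 in limma with the block), lost without P0 pair 2, P3 pair 2 or P3 pair 3 and with the estimated correlation (adjusted p = 0.0676). Pdk4, the starvation-induced kinase of pyruvate dehydrogenase, and Slc2a1, the glucose transporter of the fetal heart, were at 0.03 ± 0.12 (0.95) and 0.01 ± 0.11 (0.98).

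The remaining lists of other cell types and processes held few calls. Of 16 valve and endocardial markers, Cdh11, a cadherin of mesenchymal cells, was called at 0.62 ± 0.14 (SE, adjusted p = 0.0431 in limma with the block), lost without P0 pair 2 or 3 or P3 pair 2 or 3 and with the estimated correlation (adjusted p = 0.133). Of 11 smooth muscle and pericyte markers, Actg2, an enteric smooth muscle actin, was called at 0.73 ± 0.17 (SE, adjusted p = 0.046), and among the fits without 1 pair the call remained only without P0 pair 3; with the estimated correlation it was lost (adjusted p = 0.104). None of 16 endothelial markers was called, with a median of 0.01 and Vwf, the von Willebrand factor of vessel lining, highest at 0.86 (adjusted p = 0.068). The summed endothelial level at P0 was 805 to 1080 RPKM in LV and 845 to 996 in RV. At P3 it was 1611 to 1881 in LV and 1343 to 1443 in RV, without overlap. Fabp4, the most abundant tested member, was at -0.34 (adjusted p = 0.30 in limma with the block). None of 15 erythroid, 24 glycolysis, 18 immediate-early, 13 hypoxia, 12 interferon-response or 25 unfolded-protein genes was called, and their medians lay between -0.11 and 0.10.

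**Figure D4:**
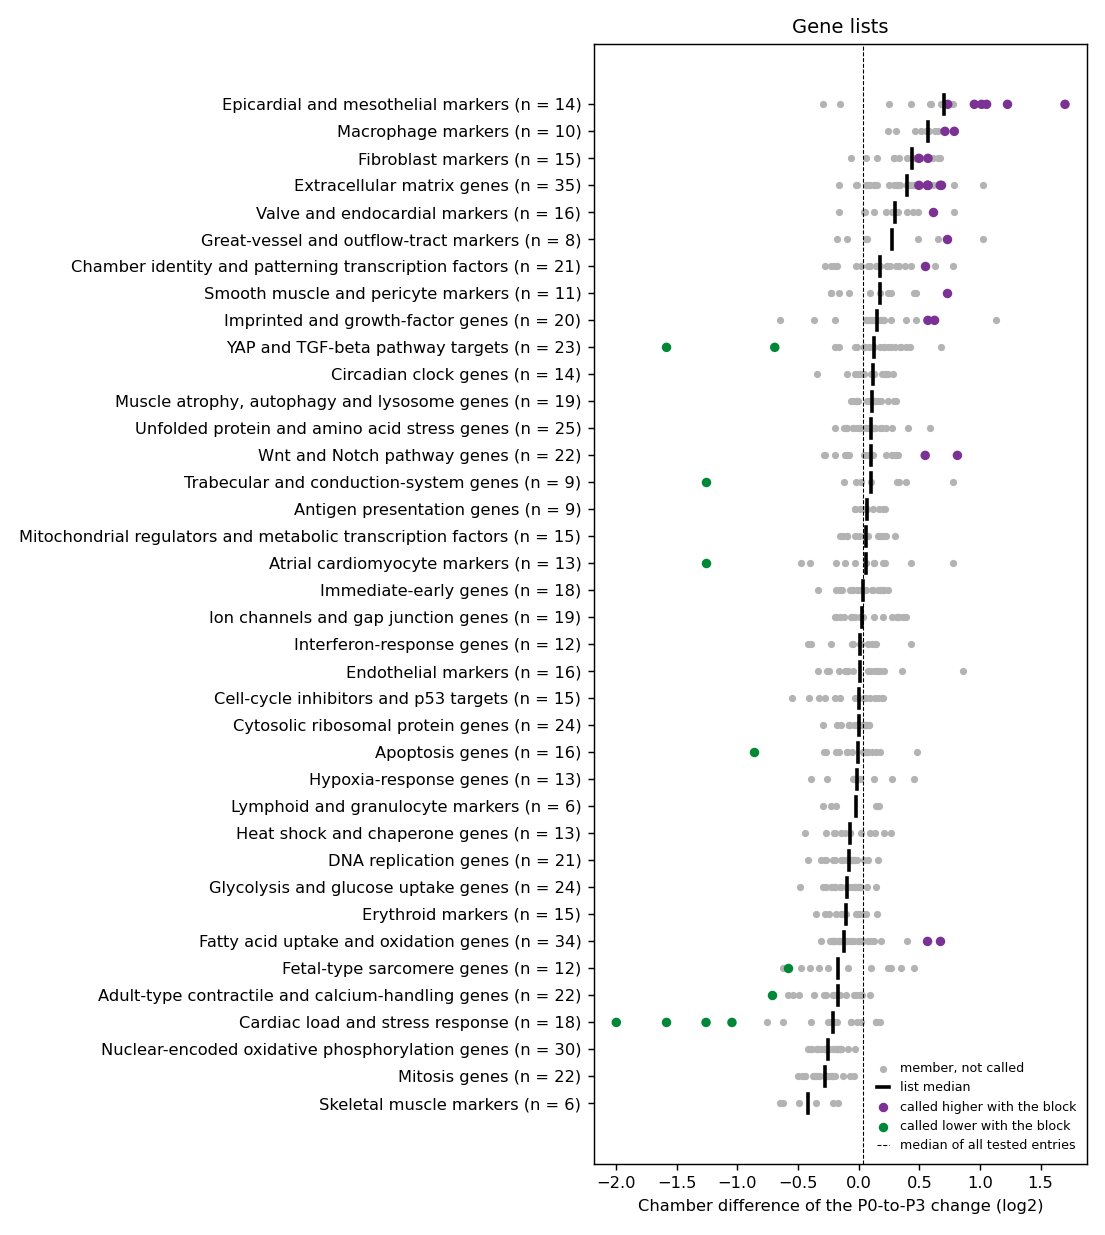
Chamber difference (log2) of each tested member of the gene lists with at least 5 tested members, ordered by median (black bars), with members called with the block in purple (higher) or green (lower) and the dashed line at the median of all tested entries, 0.03. Epicardial, macrophage, fibroblast and matrix lists lie highest, and the skeletal muscle, mitosis, oxidative phosphorylation and load lists lowest.

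The 101 entries reached their chamber difference in different ways, by the signs of the 2 changes. Of the 64 called higher, the group means went up in both chambers for 26, down in both for 13, and up in RV but down in LV for 25. Of the 37 called lower, they went down in both for 21, up in both for 9, and down in RV but up in LV for 7. The median RV minus LV gap of the 64 was -0.10 at P0 and 0.55 at P3, and that of the 37 was 0.30 at P0 and -0.43 at P3. These gaps were used to call the entries and are a description.

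The P7 libraries, 3 of LV and 2 of RV, took no part in the contrast. At P7 the RV was above the LV for 54 of the 64 entries called higher, against 42.0% of all tested entries, and below it for 23 of the 37 called lower, against 57.9% of all, a share near that of the 23 in 37. The median gap at P7 was 0.28 for the 64 and -0.04 for the 37, against -0.03 over all entries. Limma without a block called an RV minus LV difference at P7 for 17 of the 10668 entries (0.159%), and 3 of these were among the 101. Nppb was lower in RV at P7, at -1.96 (adjusted p = 0.0079), Cpa1, a carboxypeptidase, was lower at -0.82 (0.0125), and Ubxn10, a cilium-related protein, was higher at 1.01 (0.0125). Ankrd1 was at -0.37 at P7 (adjusted p = 0.97), against a mean gap of -0.99 at P3, and Fcer1g was at -0.02 (1.0).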

How the data were processed

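The authors deposited 1 table per library of RPKM values for RefSeq transcript entries, which the submitters' processing notes tie to STAR 2.4.0j and mm10 without naming how reads were counted. That the unit is RPKM was read from the values. Read numbers were recovered from the steps of the RPKM values and came out whole, within 0.02, for 20622 of 20624 entries (99.99%). Entries were named from RefSeq (GRCm38.p6) for 20379 and from GENCODE for 76, and 169 stayed unnamed; 2853 genes had several entries, each tested on its own.

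Values were transformed to log2(RPKM + 1), and entries with at least 1 RPKM in 2 of 17 libraries were kept. Limma 3.58.1 (R 4.3.3) fitted 6 group means over all 17 libraries with an intensity trend and Benjamini-Hochberg adjustment at 0.05. Labels state no shared animals; pairing was taken from the residual correlations of same-numbered libraries of one age, above 0.1 in every pair. The second fit had that number as a block within age (5 residual degrees of freedom, against 11). P-values and SEs of the blocked fit measure the spread of the RV minus LV gaps between same-numbered pairs. P-values of the fit with no block measure the spread between these libraries within a group. The model was tested on simulated data.

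Members, gene lists and named genes were chosen with earlier results of these data known. Named genes were those always reported, the best or called members of each list, and the 12 highest and 12 lowest with a group mean of at least 5 RPKM; this last rule was also applied to the blocked fit after seeing it. Alternatives were other pseudocounts, filters, scalings and variance settings, gene sums, read counts and leaving out libraries or pairs. One item is not reported here.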

Additional observations from a re-analysis of the deposited data

Results flagged for a closer look

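The test of the difference between the chambers' changes itself called 101 entries with the replicate number as a block within age and 26 with an estimated correlation between same-numbered libraries, and none without either. A reader following up would start from the 19 entries called without each pair in turn, among them Nppb, Ankrd1, Ankrd23, C3, Upk3b, Efemp1 and Msln.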

How the results depend on the processing

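Without a block, limma called 0 entries in the fit as designed and in the alternatives with no pairing within an age, the replicate block across ages and each left-out library included; the replicate block within age gave 101 and the estimated correlation 26, so every call here rests on the pairing, which the labels do not state. The blocked count was 64 with a pseudocount of 0.1, 2 of 19625 tested with no filter (Ankrd1 and Ankrd23), 67 with no variance trend and 199 with limma-voom, and 34 to 88 on leaving out 1 pair. None of the 101 changed sign in any alternative of the blocked fit. Leaving out a pair could not turn a sign. In all 64 higher and all 37 lower calls the P3 pairs did not overlap the P0 pairs. The variance settings leave the values themselves unchanged. Signs that turned were all of entries without a call. With upper-quartile scaling Myh6 was -0.019, Slc2a1 -0.020, Irx2 -0.011 and Tcap -0.00822; with median-of-ratios scaling they were -0.032, -0.033, -0.021 and -0.021, and Pdk4 was -0.00424. With a pseudocount of 0.1 Irx2 was -0.031, Ucp3 -0.14 and Hand1 -0.13; with limma-voom Irx2 was -0.030, Ttr -0.0068, Ucp3 -0.80 and Hand1 -0.60. Depth limits the lowest of the called entries, such as Cd300c2.
Leaving out 1 library gave ranges that crossed 0 for Irx1 -0.37 to 0.13, Uty -0.24 to 0.15, Tnni3 -0.16 to 0.053, Myh6 -0.30 to 0.42, Slc2a1 -0.10 to 0.11, Irx2 -0.26 to 0.30, Tcap -0.11 to 0.16, Pdk4 -0.12 to 0.21, Ttr -0.047 to 0.34 and Myh7 -0.21 to 0.89.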
